A study of Mus musculus with 6 samples.

Results

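The BCL2 family genes examined here were 10 genes chosen by symbol from a table of raw counts for 22477 genes: the anti-apoptotic genes Bcl2, Bcl2l1 and Mcl1, the effector genes Bax and Bak1, and the BH3-only genes Bcl2l11, Bbc3, Pmaip1, Bid and Bad. All 10 were in the table and all 10 passed the filter on low counts. RNA was sequenced from 4 lung tumors (tumors 3, 4, 5 and 6) and from 2 samples of normal lung (normal 1 and 2), each from a different mouse. Every animal, tumor-bearing or normal, is labelled as RPM: floxed at Rb1 (Rb1 fl/fl), floxed at Trp53 (p53 fl/fl) and carrying Myc lsl/lsl T58A, a Myc with the substitution T58A behind a stop cassette. Once Cre removes the floxed exons and the cassette, such mice develop neuroendocrine tumors used to model small cell lung cancer. The labels list the Cre virus, Ad5CGRP-Cre, for the tumor and for the normal samples alike, and the protocol describes its delivery into the trachea at 8 weeks of age. Its CGRP promoter directs Cre to neuroendocrine cells of the airway. The age at collection and any drug arm were not given in the sources used here.

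Proteins of the BCL2 family decide whether the outer membrane of the mitochondrion stays intact. The effectors BAX and BAK open pores in that membrane, which lets cytochrome c out and starts the caspase cascade. BCL2, BCL-XL (the main product of Bcl2l1) and MCL1 bind the effectors and their activators and hold them in check, and the BH3-only proteins carry stress signals by occupying the groove of the guardians or by activating the effectors directly. In small cell lung cancer the family is known as a drug target, because inhibitors of BCL2 and BCL-XL and of MCL1 have been tried there. Several members, among them Bax, Bbc3 and Pmaip1, are known targets of the p53 protein, which these tumors are built to lack.

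Total counts were 54735438 to 70817440 in tumors and 91049413 and 99122494 in normal lung. Rn45s, Rpph1 and Rmrp, RNAs without a poly(A) tail, took 5.46% to 13.9% of the counts in tumors and 0.238% and 0.550% in normal lung. Myc stood at 70.2 to 175 CPM in tumors against 7.90 and 18.2 CPM in normal lung. Here CPM is the depth-normalised read count on library sizes scaled by TMM. The log2 fold change of Myc was 3.25 ± 0.59 (SE), or 2.76 without normal 1 and 3.96 without normal 2. Trp53 stood at 9.69, 15.8, 9.42 and 11.1 CPM in tumors 3 to 6 against 21.5 and 22.6 CPM in normal 1 and 2, and Rb1 at 42.9, 74.3, 80.2 and 53.0 CPM against 83.5 and 72.0 CPM. Counts over whole genes check a deletion of some exons only weakly. All 8 neuroendocrine markers were higher in tumors, with a summed level of 699 to 1314 CPM against 18.3 and 22.5 CPM. All 10 alveolar markers were lower (108 to 749 CPM against 22149 and 23963 CPM summed), as were all 8 endothelial markers (59.3 to 165 CPM against 3852 and 4273 CPM), 9 of 10 T and NK cell markers (3.34 to 8.63 CPM against 38.5 and 45.6 CPM) and 5 of 7 macrophage markers (240 to 1131 CPM against 4933 and 5385 CPM). All 6 proliferation markers were higher (2033 to 2639 CPM against 144 and 168 CPM summed). Of the other lists, 5 of 7 B and plasma cell markers, 4 of 7 neutrophil markers, 6 of 7 airway markers and 6 of 8 fibroblast and muscle markers were lower. Of these marker lists, 0 had a gene without counts in all 4 tumors. In such bulk samples, fewer cells of a type and less RNA per cell cannot be told apart, and the part of these shifts in the values below was not tested.

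Tumors had less RNA of all 3 anti-apoptotic genes, more Bax and less Bak1, and a divided BH3-only group, with Bid higher, Bcl2l11 and Pmaip1 lower and no call for Bbc3 or Bad. In all, 2 of the 10 genes rose and 6 fell in tumors (edgeR quasi-likelihood test, Benjamini-Hochberg adjusted over 18027 genes, threshold 0.05). Across the whole table the same test called 63.9% of genes, 31.3% as higher and 32.6% as lower, so that a call by itself sets none of these genes apart. The CPM of the 4 tumors lay wholly above or wholly below those of both normal libraries for 9 of the 10 genes, as for 77.3% of all genes tested. They lay above for 3 of the 10, against 37.4% of all genes, and below for 6, against 39.8%. The median log2 fold change was -1.21 over the 10 genes and 0.02 over all genes tested. The middle part of all genes, between the lower and upper quartile, ran from -1.53 to 1.33.

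**Figure D1:**
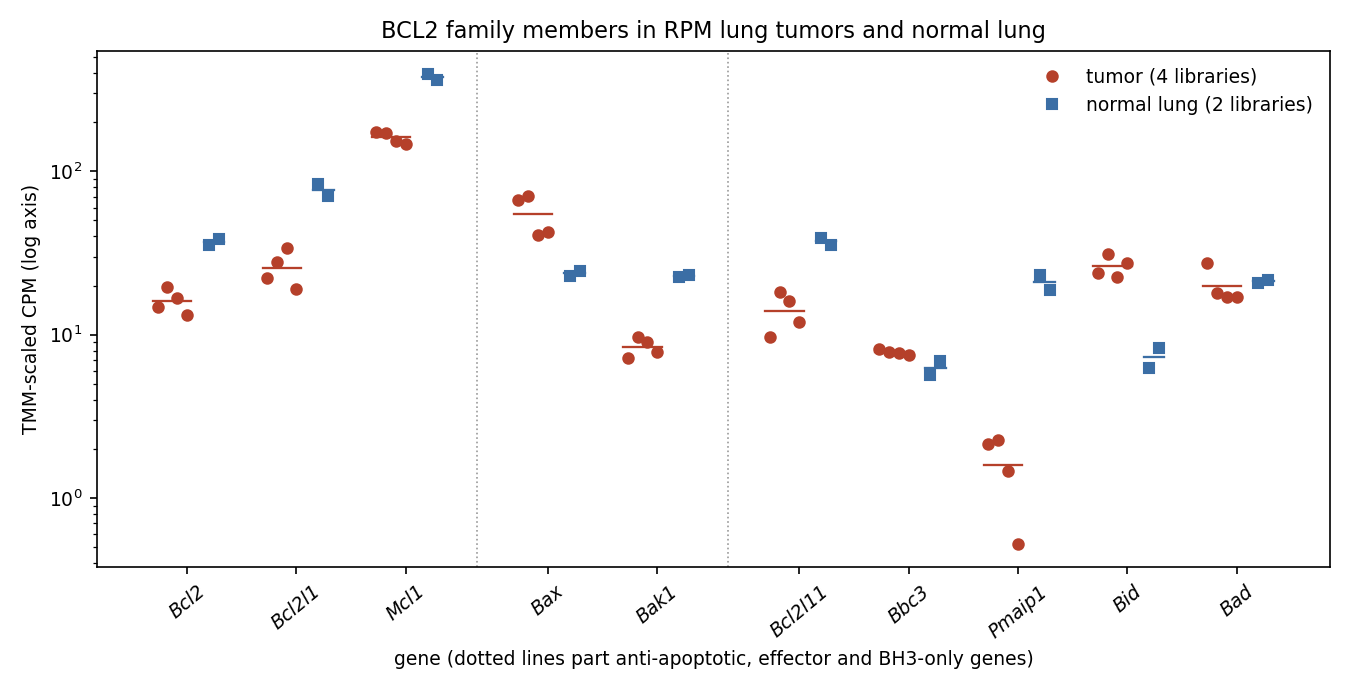
TMM-scaled CPM, on a log axis, of the 10 BCL2 family genes in each library, with a bar at the mean of each group. Circles are the 4 tumors in the order 3 to 6 and squares normal 1 and 2. Tumor values lie below both normal values for Bcl2, Bcl2l1, Mcl1, Bak1, Bcl2l11 and Pmaip1, above them for Bax, Bid and Bbc3, and on both sides for Bad.

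The 3 anti-apoptotic genes fell by similar amounts. Mcl1, whose short-lived protein holds BAK and BIM in check, had 175, 173, 154 and 146 CPM in tumors 3 to 6 against 393 and 363 CPM in normal 1 and 2. It was 2.33-fold lower (log2 fold change -1.22 ± 0.15, SE; adjusted p = 0.000543), and the tumors ranged over a factor of 1.2 between the lowest and the highest. Bcl2, the founding member of the family and the target of venetoclax, had 14.7, 19.6, 16.7 and 13.1 CPM in tumors 3 to 6 against 35.4 and 38.4 CPM in normal 1 and 2. Every tumor was below both normal libraries, and the fold change was 2.30-fold lower (log2 fold change -1.20 ± 0.21, adjusted p = 0.00262). Bcl2l1, which encodes BCL-XL and by another splice site a shorter pro-apoptotic form, had 22.3, 27.9, 33.8 and 19.0 CPM in tumors against 83.6 and 70.8 CPM in normal lung. It was 3.00-fold lower (-1.58 ± 0.25, adjusted p = 0.00161), with tumor 5 highest and tumor 6 lowest among the tumors. Gene counts do not separate the splice forms. The calls of all 3 genes held under all 14 alternatives, with log2 fold changes between -1.74 and -1.03.

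The 2 effector genes moved in opposite directions. Bax had 66.5, 70.8, 41.0 and 42.4 CPM in tumors 3 to 6 against 22.9 and 24.6 CPM in normal 1 and 2. Tumors 3 and 4 stood well above tumors 5 and 6, and all 4 above both normal libraries. The gene was 2.32-fold higher (log2 fold change 1.21 ± 0.29, adjusted p = 0.00996). With a single normal library the call was lost, at 1.15 without normal 1 and 1.25 without normal 2. Over the whole table, too, a smaller share of genes was called with a single normal library. Bak1 had 7.23, 9.66, 9.0 and 7.88 CPM in tumors against 22.6 and 23.3 CPM in normal lung, and was 2.72-fold lower (-1.44 ± 0.21, adjusted p = 0.00124). In the GRCm38 annotation 12.2% of the exon bases of Bax are shared with Gm45808 on the same strand, and 25.5% of the exon bases of Bak1 are shared with Ggnbp1 on the opposite strand. The counts may hold reads of the overlapping genes, and Ggnbp1 itself stood at 1.45 to 3.59 CPM in tumors and at most 1.5 CPM in normal lung.

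The 250 bases before each annotated start of the family's genes were searched for the letters CACGTG, the E-box that MYC and MAX bind, which read the same on both strands. RefSeq windows (GRCm38.p6) were at hand for 9 of the 10 genes, with 15 starts in all. The letters occurred before the start of Bax, their first base 9 bases upstream, and before the third start of Bbc3, 64 bases upstream. They occurred in 6.02% of the 32851 windows of the same length at hand, which do not cover all genes. A match describes letters only. The Bax window (chr7:45466899-45467148, minus strand) and the third Bbc3 window (chr7:16310181-16310430, plus strand) are printed because they hold the E-box, in capitals. The windows of Bid (chr6:120916825-120917074, minus strand), the other gene that rose, and of Mcl1 (chr3:95658471-95658720, plus strand), the most abundant of the genes that fell, are printed for contrast and hold no CACGTG.
Bax: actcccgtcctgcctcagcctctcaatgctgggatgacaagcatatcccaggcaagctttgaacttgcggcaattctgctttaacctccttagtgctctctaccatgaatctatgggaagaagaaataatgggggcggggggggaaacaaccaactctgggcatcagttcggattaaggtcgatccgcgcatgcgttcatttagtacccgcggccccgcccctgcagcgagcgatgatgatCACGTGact
Bbc3: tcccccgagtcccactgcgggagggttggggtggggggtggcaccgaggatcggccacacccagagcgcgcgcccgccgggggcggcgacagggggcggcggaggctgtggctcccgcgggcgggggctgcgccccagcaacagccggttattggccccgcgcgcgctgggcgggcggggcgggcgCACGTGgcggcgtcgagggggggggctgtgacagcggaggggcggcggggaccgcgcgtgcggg
Bid: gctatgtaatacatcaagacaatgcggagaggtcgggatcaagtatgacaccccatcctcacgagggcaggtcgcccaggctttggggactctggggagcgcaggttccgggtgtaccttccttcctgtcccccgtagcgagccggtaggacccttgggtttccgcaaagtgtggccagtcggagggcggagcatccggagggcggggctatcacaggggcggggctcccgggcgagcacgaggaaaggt
Mcl1: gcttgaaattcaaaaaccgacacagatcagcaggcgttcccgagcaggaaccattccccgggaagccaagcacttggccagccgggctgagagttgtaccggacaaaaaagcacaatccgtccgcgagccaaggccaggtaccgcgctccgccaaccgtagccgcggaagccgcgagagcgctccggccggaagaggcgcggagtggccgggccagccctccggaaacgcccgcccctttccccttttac

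The BH3-only genes showed the widest spread of changes. Of the 5, 1 rose, 2 fell and 2 were not called, and their median log2 fold change was -0.09. Bid, which caspase 8 cuts to link death receptors to mitochondria, had 24.0, 31.4, 22.5 and 27.6 CPM in tumors 3 to 6 against 6.25 and 8.34 CPM in normal 1 and 2. It was 3.61-fold higher (log2 fold change 1.85 ± 0.25, adjusted p = 0.000926) and its call held under all 14 alternatives, at 1.65 to 2.06. Some 17.7% of the exon bases of Bid are shared with Bcl2l13 on the opposite strand. As the strand setting was not given, reads in the shared bases cannot be assigned to either gene. Bcl2l13, a family relative of the mitochondrial membrane, was higher as well. Pmaip1, the gene of NOXA, which binds MCL1 and sends it for degradation, fell most. It had 2.15, 2.28, 1.46 and 0.524 CPM in tumors 3 to 6, from 144, 116, 112 and 35 counts, against 23.1 and 18.9 CPM in normal 1 and 2, from 2277 and 1752 counts. The gene was 13.1-fold lower (-3.71 ± 0.55, adjusted p = 0.0013), and its call held under all 14 alternatives, at log2 fold changes of -3.93 to -3.33. Tumor 6 was lowest by a wide margin. It also had the smallest macrophage (240 CPM), endothelial (59.3 CPM) and alveolar (108 CPM) marker sums. Its fibroblast and muscle (1090 CPM) and neutrophil (39.9 CPM) sums were the largest. Col1a1, Col1a2, Col3a1 (579 CPM), Dcn and Myh11 were highest in tumor 6, but Pdgfra and Acta2 lowest and Pdgfrb neither. S100a9 alone gave 36.0 CPM of the neutrophil sum of tumor 6. S100a8, Csf3r and Retnlg were lowest in that tumor, and Cxcr2, Mmp9 and Camp neither highest nor lowest. Lyz2 alone gave 176 CPM of the macrophage sum of tumor 6. Cd68, Marco and Mertk were also lowest in tumor 6, but Csf1r and Adgre1 were lowest in tumor 4, and Mrc1 was highest in tumor 6. The part of these cell types in the low Pmaip1 value was not tested.

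Bcl2l11, the gene of BIM, which binds every guardian of the family, had 9.70, 18.3, 16.1 and 11.9 CPM in tumors 3 to 6 against 39.2 and 35.5 CPM in normal 1 and 2. It was 2.67-fold lower (log2 fold change -1.42 ± 0.28, adjusted p = 0.00441), with tumor 3 lowest and tumor 4 highest among the tumors. Bbc3, the gene of PUMA and a known p53 target, had 8.17, 7.83, 7.71 and 7.54 CPM in tumors against 5.65 and 6.86 CPM in normal lung. All tumors were above both normal libraries, but the difference was small and did not pass the test (0.32 ± 0.24, adjusted p = 0.280). Bad, whose protein is kept inactive by phosphorylation under survival signals, had 27.7, 18.0, 17.0 and 16.9 CPM in tumors against 20.8 and 21.6 CPM in normal lung. Tumor 3 was above both normal libraries and the other 3 tumors below them, and the test made no call (-0.09 ± 0.26, adjusted p = 0.770). Without tumor 3 its log2 fold change was -0.29 (adjusted p = 0.186). Its sign turned to 0.035 under upper quartile scaling. Gpr137 shares 20.5% of the exon bases of Bad on the opposite strand, and stood at 7.35 to 9.42 CPM in tumors and 17.4 and 18.0 CPM in normal lung.

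**Figure D2:**
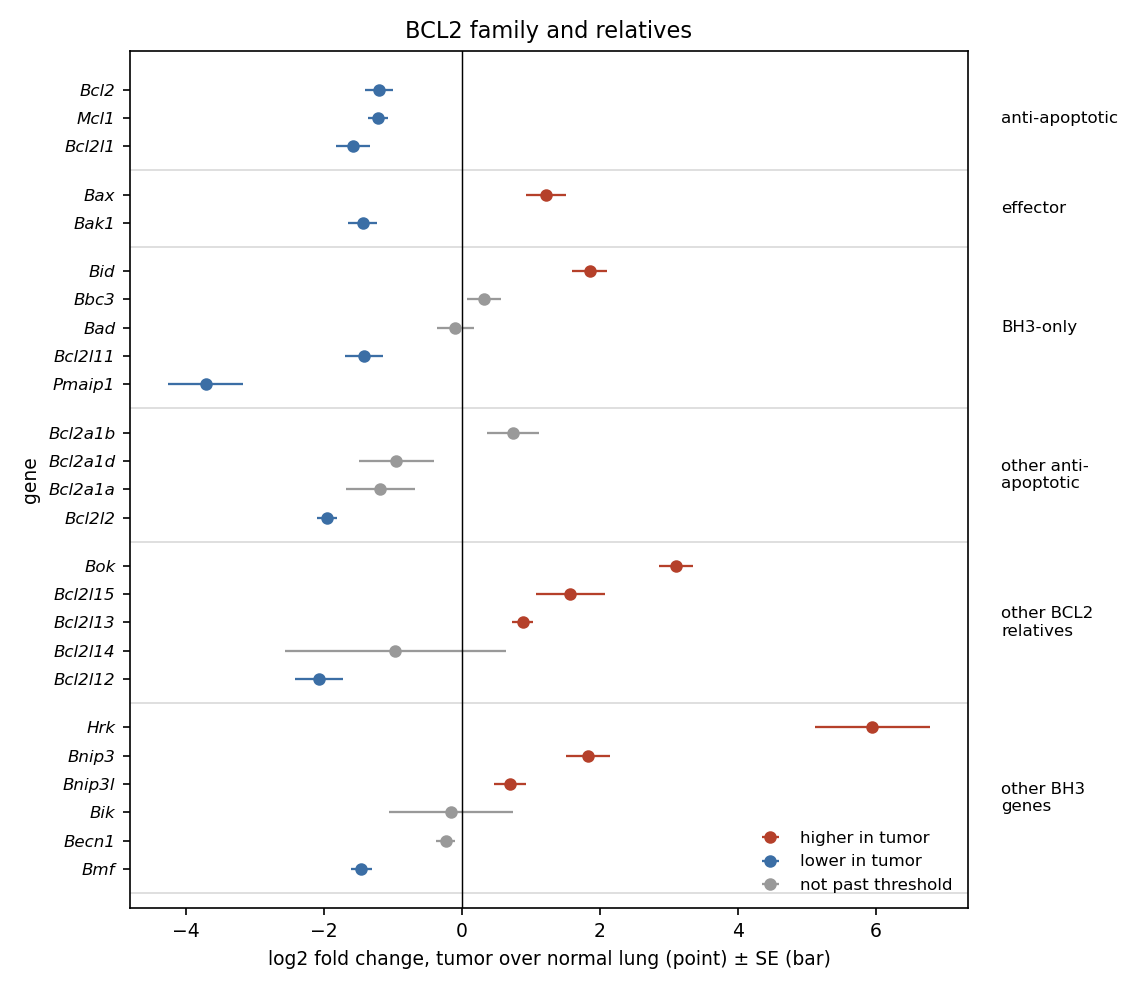
Log2 fold change of tumor over normal lung for the 10 genes, by role, and for their tested relatives, with bars of 1 SE. Blue marks genes lower in tumors, red genes higher and gray genes not past the threshold; the largest rise is that of Hrk (5.95) and the largest fall that of Pmaip1 (-3.71).

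Levels of different genes were set beside each other only after division by exon length, as CPM per kilobase of merged exons in the GENCODE annotation of GRCm38. On that scale Mcl1 was the main anti-apoptotic transcript in both tissues, at 47.3 ± 4.11 in tumors (SD, n = 4) and 111 ± 6.24 in normal lung (n = 2). It made up 86.6% of the summed anti-apoptotic level in tumors (range 83.0% to 88.7%) and 84.1% in normal lung (83.9% and 84.4%). With the length of the longest transcript in place of the merged exons, these shares were 79.5% (74.4% to 82.6%) in tumors and 75.9% in normal lung, and Bcl2l1 stood at 10.0 and 30.1 CPM per kilobase. Bcl2l1 followed at 5.62 ± 1.42 CPM per kilobase in tumors and 16.8 ± 1.98 in normal lung, and Bcl2 at 1.75 ± 0.31 and 4.03 ± 0.23. The order of the 3 genes was thus the same in tumors and in normal lung, with gaps beyond the spread of libraries. Their summed level was 54.7 ± 4.69 CPM per kilobase in tumors and 131 ± 7.98 in normal lung.

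The effector and BH3-only groups changed in make-up. Bax made up 90.4% of the effector level in tumors (87.4% to 93.4%) and 61.3% in normal lung (60.8% and 61.8%). Bax stood at 35.0 ± 9.95 CPM per kilobase in tumors against 15.1 ± 0.76 in normal lung, and Bak1 at 3.51 ± 0.45 against 9.53 ± 0.20. Among the BH3-only genes of the tumors, Bad (7.78 ± 2.03 CPM per kilobase) and Bid (7.42 ± 1.11) were highest and did not differ beyond their spread, then came Bbc3 (3.68 ± 0.12), Bcl2l11 (1.74 ± 0.48) and Pmaip1 (0.586 ± 0.294). Normal lung had Bad (8.30 ± 0.23) and Pmaip1 (7.69 ± 1.09) highest, again without a gap beyond their spread, then Bcl2l11 (4.66 ± 0.32), Bbc3 (2.94 ± 0.40) and Bid (2.05 ± 0.42). With the longest transcript the order in tumors was the same, whereas in normal lung Bad (13.8 ± 0.39) stood far above Pmaip1 (7.71 ± 1.1) and Bcl2l11 (7.42 ± 0.52), which did not differ beyond their spread. With merged exons, Bid thus held 35.1% of the BH3-only level in tumors and 8.02% in normal lung, and Pmaip1 2.70% against 30.0%. With the longest transcript, Bid held 34.7% against 8.52% and Pmaip1 1.82% against 21.7%. The Bax share of the effector level was then 93.1% against 69.2%. With merged exons, the summed BH3-only level was 21.2 ± 2.14 CPM per kilobase in tumors and 25.6 ± 0.37 in normal lung. Every tumor was below both normal libraries, by 1.21-fold on average, or 1.12-fold with the longest transcript. The effector sum was 38.5 ± 10.00 against 24.6 ± 0.96, 1.56-fold higher, or 1.72-fold with the longest transcript.

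**Figure D3:**
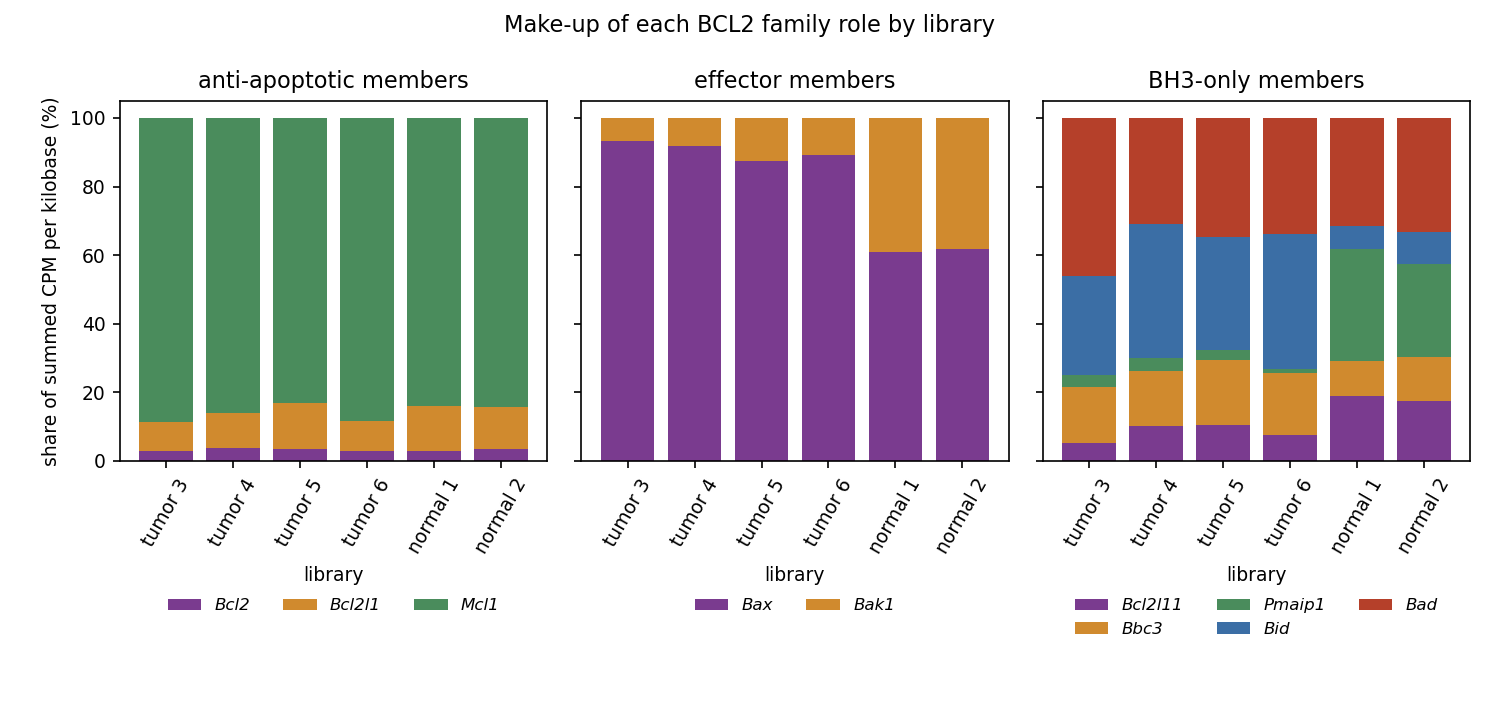
Share of each gene, in percent, in the summed CPM per kilobase of its role, by library, with the 4 tumors left of the 2 normal libraries. Mcl1 fills over 83.0% of every anti-apoptotic bar, Bax 87.4% to 93.4% of the tumor effector bars, and Pmaip1, at 27.3% and 32.7% in normal lung, shrinks to at most 3.68% in a tumor.

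Ratios of counts within a library do not depend on how libraries are scaled. The log2 ratio of Bax over Bak1 was 3.20, 2.87, 2.19 and 2.43 in tumors 3 to 6 against 0.02 and 0.08 in normal 1 and 2, a difference of 2.62 or 6.15-fold. All tumors were above both normal libraries, and the exact two-sided permutation test gave p = 0.0667, the smallest that 4 libraries against 2 allow. Leaving out each library in turn gave differences of 2.44 to 2.78. By contrast, the log2 ratio of Bcl2 over Mcl1 was -3.57, -3.14, -3.21 and -3.48 in tumors and -3.47 and -3.24 in normal lung, with a difference of 0.01 (exact permutation p = 0.933). The ratio of Bcl2 over Bcl2l11, a guardian over an activator that it binds, was 0.60, 0.10, 0.06 and 0.14 in tumors and -0.15 and 0.11 in normal lung on the log2 scale, and the groups overlapped (difference 0.24, exact permutation p = 0.467). Bcl2l1 over Mcl1 likewise overlapped, at -2.97, -2.63, -2.19 and -2.95 in tumors and -2.23 and -2.36 in normal lung (difference -0.39, exact permutation p = 0.267). Adjusted by Benjamini-Hochberg over the 4 ratios, the exact p-values were 0.267, 0.933, 0.622 and 0.533 in the order given.

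**Figure D4:**
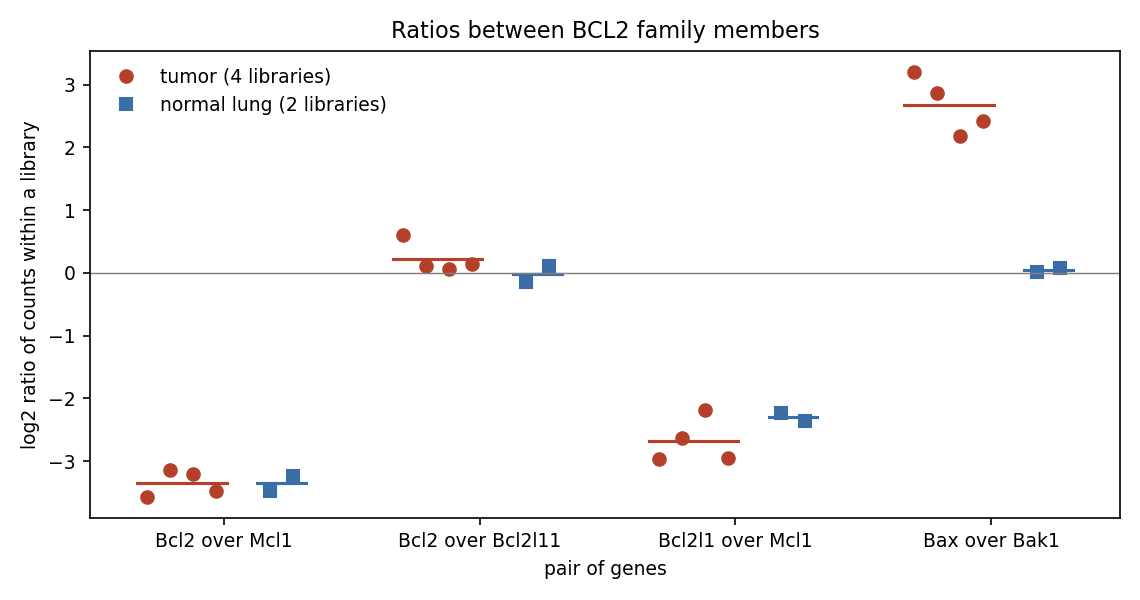
Log2 ratio of raw counts of 4 pairs of BCL2 family genes in each library, with bars at the group means. Circles are tumors 3 to 6 and squares normal 1 and 2; Bax over Bak1 is 2.19 to 3.20 in tumors and near 0 in normal lung, and the groups overlap for the other 3 pairs.

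The family's genes also differed in how evenly they were expressed among the 4 tumors. Bbc3 was the most even under TMM scaling, with an SD of 0.05 in log2 CPM, where counting noise at its 399 to 592 counts would give 0.06 if each count were an independent read. Of the 1000 tested genes nearest to it in mean tumor level, 0.1% had a smaller SD. The SD of Bbc3 was 0.08 with RLE size factors and 0.09 without composition scaling, above that counting noise, and without composition scaling Mcl1 was the more even, at 0.08. Without tumor 3 the SD of Bbc3 was 0.03. Bak1 (SD 0.19) and Mcl1 (0.13) were also steady, with 10.5% and 11.3% of such genes below them. Bax was among the more variable, with an SD of 0.42 and 80.7% of such genes below it. Pmaip1 had the largest SD, 0.96, at the 71.4th percentile for its level, and its highest tumor was 4.35-fold above its lowest. Without tumor 6 its SD was 0.34, below the 0.48 of Bcl2l11 among the same 3 tumors. The other 5 genes had SDs of 0.21 to 0.41, between the 28.8th and the 64.4th percentile. Bcl2, Bak1, Bcl2l11, Pmaip1, Bax and Bid were highest in tumor 4, Bcl2l1 in tumor 5, and Mcl1, Bbc3 and Bad in tumor 3.

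Genes with a like profile were sought by the root mean square distance of centred log2 CPM over the 6 libraries, among genes with a mean log2 CPM of at least 3. Nearest to Bcl2 were Zfp110 (0.05), Rufy1 (0.07) and Tmem189 (0.07), nearest to Mcl1 were Cr1l (0.05), Uvrag (0.06) and Aktip (0.06), and nearest to Bax were Get4 (0.04), Psma2 (0.05) and Llph (0.06). Such profiles were common: of 10609 genes searched, 201 lay within 0.2 of Bcl2, 288 of Mcl1 and 266 of Bax. Casp9, the initiator caspase of the mitochondrial pathway, was the third nearest to Bcl2l1 (0.13), which had 36 genes within 0.2. Pmaip1 had 1, Vamp8 (0.15).

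Among relatives of the family, Hrk and Bok were higher and Bcl2l2 and Bcl2l12 lower, each by 3.87-fold or more. The counts of calls in this and the next lists stand against 31.3% of all genes tested called higher and 32.6% called lower. Of the 6 other anti-apoptotic genes, Bcl2a1c and Bcl2l10 had at most 6 counts in any library and were not tested, and of the 4 tested 1 fell and 3 did not pass. Bcl2l2, which encodes BCL-W, had 28.6, 34.8, 27.8 and 29.9 CPM in tumors 3 to 6 against 124 and 111 CPM in normal lung and was 3.87-fold lower (log2 fold change -1.95 ± 0.15, adjusted p = 0.000105). The Bcl2a1 genes, near-identical copies known from myeloid cells and lymphocytes, cannot be told apart with certainty in these counts. Bcl2a1b stood at 12.5, 10.4, 9.46 and 5.42 CPM in tumors against 5.59 and 5.77 CPM (adjusted p = 0.127), and passed as higher without tumor 6 (1.02, adjusted p = 0.0191). Bcl2a1d (-0.95) did not pass, but did as lower without tumor 3 (-1.39, adjusted p = 0.0415). Among the tumors, Bcl2a1a, Bcl2a1b and Bcl2a1d each peaked in tumor 3 and had their smallest value in tumor 6. So did the macrophage marker sum, at 1131 and 240 CPM, of which Lyz2 alone gave 1034 and 176 CPM. Marco and Mertk had the same extremes, but Csf1r and Adgre1 were lowest in tumor 4, Cd68 highest there and Mrc1 highest in tumor 6. T and NK cell (8.63 CPM) and B and plasma cell (82.5 CPM) sums were also largest in tumor 3, but smallest in tumor 4. Neutrophil markers had their largest sum in tumor 6 (39.9 CPM), but S100a9 alone made up 36.0 CPM of it. S100a8, Csf3r and Retnlg had the same extremes as the Bcl2a1 genes. Camp shared only the peak, and Cxcr2 and Mmp9 shared neither extreme. How far these cell types account for the Bcl2a1 values was not tested.

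Of 5 other relatives with a BCL2-like fold, 3 rose and 1 fell. Bok, an effector-like gene held low by protein turnover, had 92.7, 86.6, 75.2 and 57.7 CPM in tumors 3 to 6 against 9.45 and 8.71 CPM in normal 1 and 2. It was 8.60-fold higher (log2 fold change 3.10 ± 0.25, adjusted p = 0.000133), and all tumors were far above both normal libraries. Bcl2l13 rose by 0.88 ± 0.15 and Bcl2l12 was 4.21-fold lower (-2.08 ± 0.35). Bcl2l15 was called higher at 0.464 to 0.849 CPM against 0.173 and 0.248 CPM, and that call was lost without normal 1 (1.32), normal 2 (1.84) or tumor 5 (1.59), and without a filter on low counts (1.54). Bcl2l14 had 9.74 CPM in tumor 4 but 0.492, 0.508 and 0.0598 in tumors 3, 5 and 6, against 5.64 and 4.87 CPM in normal lung. It did not pass (-0.97 ± 1.60), and without tumor 4 it passed as lower (-3.88, adjusted p = 0.00845).

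Of 6 other genes with a BH3 motif, 3 rose, 1 fell and 2 did not pass. Hrk, the gene of Harakiri, known from dying neurons, had 8.23, 10.9, 13.4 and 6.01 CPM in tumors 3 to 6 against 0.051 and 0.259 CPM in normal 1 and 2, from 5 and 24 counts. Its log2 fold change was 5.95 ± 0.84 (adjusted p = 0.00107), or 5.20 without normal 1 and 7.50 without normal 2. Bmf, whose protein is tied to the cytoskeleton until anchorage is lost, had 28.5, 22.0, 23.1 and 24.3 CPM in tumors against 69.8 and 64.6 CPM, and was 2.75-fold lower (-1.46 ± 0.16, adjusted p = 0.000388). Bnip3 and Bnip3l, mitophagy receptors, rose 3.55-fold and 1.62-fold, but Bnip3l was not called without normal 1 (0.77), normal 2 (0.60) or tumor 3 (0.70). Becn1, the autophagy gene, did not pass (-0.24 ± 0.14). Bik was at 2.62, 17.3, 3.96 and 1.83 CPM in tumors against 6.93 and 7.41 CPM and did not pass (-0.16 ± 0.90), whereas without tumor 4 it passed as lower (-1.35, adjusted p = 0.0241).

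Downstream of the mitochondrion, 2 of 7 tested genes of the apoptosome and caspases rose and 4 fell. Cycs, cytochrome c, had 169, 136, 91.5 and 124 CPM in tumors 3 to 6 against 32.4 and 37.2 CPM in normal lung and was 3.74-fold higher (log2 fold change 1.90 ± 0.27). Apaf1, the scaffold of the apoptosome, and Casp9 were 2.06-fold and 2.74-fold lower, and Casp6, an executioner caspase, 9.10-fold lower at 1.21 to 3.53 CPM in tumors against 20.6 and 21.0 CPM in normal lung. Of 8 caspase inhibitors and their antagonists 3 rose and 3 fell. Birc5, the gene of survivin and part of the mitotic machinery, was 36.1-fold higher, beside the higher proliferation markers, whose part in it was not tested. Xiap, the direct caspase inhibitor, was 2.54-fold lower and Birc3 10.1-fold lower. Xaf1, an interferon-induced antagonist of XIAP, was 21.5-fold lower, and the mitochondrial antagonists Htra2 and Diablo rose 2.86-fold and 1.57-fold. Diablo was not called without normal 1 (0.60), normal 2 (0.68) or tumor 3 (0.66), and Htra2 without normal 1 (1.40), which left 1 of the 3 rises there.

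Of 8 genes of mitochondrial proteins that the family meets, 6 rose, but without normal 1 or normal 2 only 2 did. The channel genes Vdac1 and Vdac3 rose 2.32-fold and 2.15-fold and kept their call without each library in turn. Endog, a nuclease released from mitochondria, rose by 0.96 ± 0.22 and lost its call without normal 1 (0.89) or normal 2 (1.01). All 3 genes of DNA breakdown and its sensing were higher, Parp1 3.65-fold, Dffb 3.11-fold and Dffa 1.5-fold, and of these 1 was called without normal 1 and 1 without normal 2. Among 6 genes that set the turnover of MCL1, 2 rose and 0 fell. These were Cul5 (2.06-fold) and March5 (1.52-fold, not called without normal 1 or normal 2), both of ubiquitin ligases. Of 8 kinase and adaptor genes that act on BAD and BIM, 2 rose, Pim2 3.31-fold and Ywhaq 1.75-fold, with Ywhaq not called without normal 1 (0.77), normal 2 (0.81) or tumor 5 (0.82).

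Of 10 transcription factors known to drive family members, 3 rose and 4 fell. Foxo1 and Foxo3, which activate Bcl2l11 and Bbc3 in many cells, were lower. Foxo1 had 3.31, 5.58, 7.10 and 2.27 CPM in tumors 3 to 6 against 55.5 and 50.1 CPM in normal lung (11.6-fold lower, log2 fold change -3.53 ± 0.44, adjusted p = 0.00065). Foxo3 had 10.2, 15.9, 20.5 and 18.6 CPM in tumors against 56.9 and 47.9 CPM (3.21-fold lower, -1.68 ± 0.28, adjusted p = 0.00227). Trp53 fell 1.92-fold (log2 fold change -0.94 ± 0.27, adjusted p = 0.019) and was not called without normal 1 (-0.99) or normal 2 (-0.92). Besides Myc, E2f1 rose 2.63-fold and Atf4, of the stress response, 2.17-fold, with Atf4 not called without normal 1 (1.03). Without normal 2, the number that fell was 2. Over the 68 genes of these 10 lists, 65 were tested, 27 rose and 14 fell, with a median log2 fold change of 0.28. Over all genes tested, 31.3% rose and 32.6% fell, with a median of 0.02, and no set test was run.

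**Figure D5:**
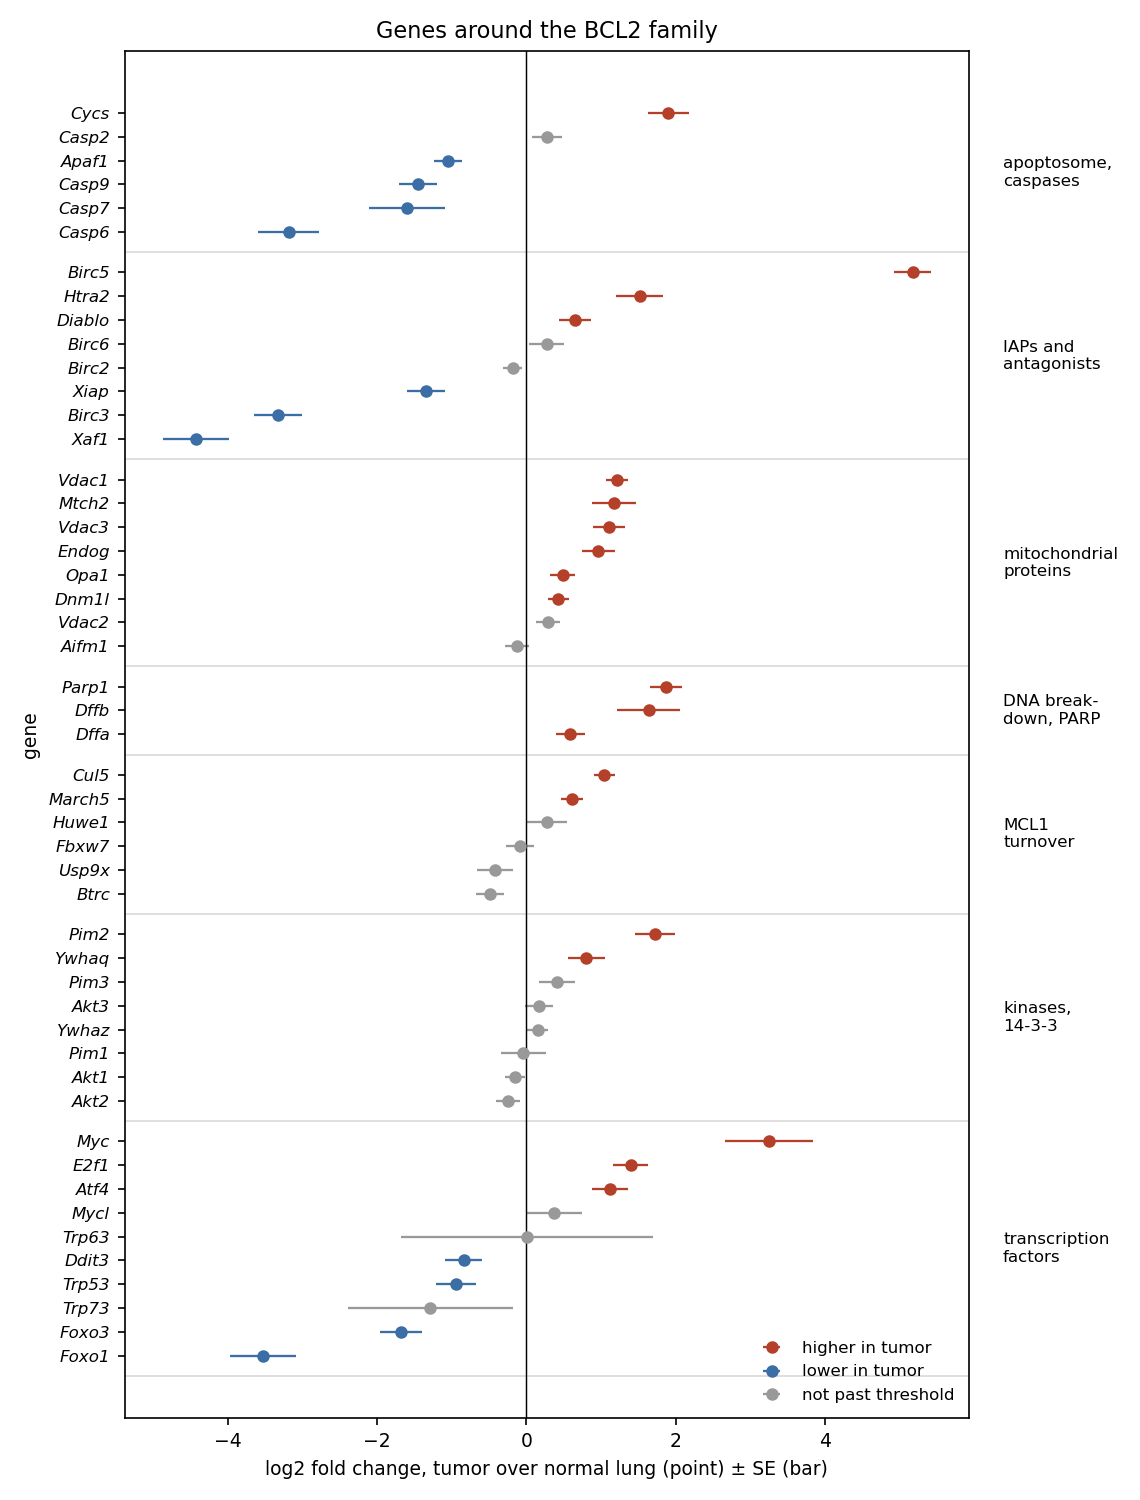
Log2 fold change of tumor over normal lung, with bars of 1 SE, for tested genes of 7 lists around the BCL2 family, leaving out 1 gene that is not reported here. Red genes were higher, blue lower and gray not past the threshold; the values run from Birc5 (5.17) to Xaf1 (-4.43), and the list of mitochondrial proteins has 6 red genes and 0 blue ones.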

How the data were processed

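The 10 genes and all gene lists were chosen with earlier results of these data known. The deposited values are raw counts per gene, 1 column per library, and per the labels the authors obtained them with TPMCalculator. Trimming with Trim Galore and Trimmomatic 0.36, the aligner STAR 2.5.4a, R 3.5.1, DESeq2 1.22.2 and the build mm9 appear in the submitters' processing notes without a role. Annotation and strand setting were not given in the sources used here, so genes sharing exon bases on either strand may share reads. Of counts from 1 to 10, 61.2% were even, and a count need not be an independent read.

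The label for tissue type set the groups, and all carry the same batch label. Tumors and normal lung were compared with edgeR 4.0.16 (quasi-likelihood, R 4.3.3, TMM scaling) on genes kept by its group-aware filter with a minimum count of 10 and a minimum total of 15, adjusted over 18027 genes. The SE is the log2 fold change divided by the square root of F, and log2 CPM had 2 as prior count. Biological variation, as edgeR's common coefficient, was 0.433. Only the edgeR step was tested on simulated counts. Few genes were changed there, evenly up and down, unlike these data, where 63.9% of genes were called. The other steps were not simulated. Libraries of a group differed by more than sampling noise, at a chi-square of 54.1 per degree of freedom between the normal libraries and 221 or more between tumors. Alternatives were other scalings and filters, DESeq2 1.42.0, limma 3.58.1 voom, removal of 1127 small RNA and histone genes, and leaving out each library. Exon lengths (merged exons, with the longest transcript as alternative) and overlaps came from GENCODE on GRCm38, a build other than mm9. The text draws on the 10 genes, their listed relatives, up to 3 genes per direction of each other list by smallest adjusted p, Myc, Trp53, Rb1, genes sharing exon bases with a member, and the 3 genes of nearest profile. Of the marker genes, 4 symbols were not analysed here. A gene that the naming rule takes is not reported here.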

Additional observations from a re-analysis of the deposited data

Results flagged for a closer look

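Among the 10 genes and their tested relatives, 3 had a single tumor far from the other 3 in CPM without log. Chance flags about 1 gene in 20 where values are normally distributed, which was not tested for these CPM. The flag was not repeated on log2 CPM. Bad stood at 27.7 CPM in tumor 3 and at 16.9 to 18.0 CPM in the others. Bcl2l14 stood at 9.74 CPM in tumor 4 and at 0.0598 to 0.508 CPM in the others. Bik stood at 17.3 CPM in tumor 4 and at 1.83 to 3.96 CPM in the others.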

How the results depend on the processing

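No paired analysis was possible because the tumor and normal libraries share no replicate number. Bcl2, Bcl2l1, Mcl1, Bak1, Bcl2l11, Pmaip1 and Bid kept their calls under all 14 alternatives. Bax ran from 1.07 to 1.41 with 1 library left out and was not called without normal 1 (1.15) or normal 2 (1.25). Bad, not called, ran from -0.29 to 0.071 with 1 library left out, and turned to 0.035 under upper quartile scaling and 0.0035 without small RNA and histone genes. The median log2 fold change of all genes was 0.14 under upper quartile scaling and 0.12 without a filter, against 0.02 as reported. The difference in Bcl2 over Mcl1 ran from -0.11 to 0.13 with 1 library left out, with -0.11 without normal 1, -0.06 without tumor 4 and -0.04 without tumor 5. Bik turned to 0.11, 0.021 and 0.22 without tumors 3, 5 and 6 and stood at -1.35 without tumor 4. Voom called 2 anti-apoptotic relatives lower and 1 gene of MCL1 turnover lower. With 1 library left out, all genes called higher numbered 3373 to 5912, members higher 1 to 2, effectors higher 0 to 1, anti-apoptotic relatives higher 0 to 1 and lower 1 to 2, other relatives with the fold lower 1 to 2, other BH3 genes lower 1 to 2, caspase inhibitors and antagonists higher 1 to 3, mitochondrial partners higher 2 to 6, DNA breakdown genes higher 1 to 3, MCL1 turnover genes higher 1 to 2 and lower 0 to 1, kinases and adaptors higher 1 to 2, and transcription factors lower 2 to 5. With 1 normal library left, the spread comes from tumors and the lone library is assumed to vary like them. A smaller share of all genes was called with 1 normal library left, and the ranges of counts above include those fits. The number of libraries, with 2 normal ones, limits the precision, and the causes of the lost calls were not tested.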
